A study of Mus musculus with 2 samples.

Results

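The genes described here are the 9 ligand and receptor genes of the TNF, Fas and TRAIL death pathways, taken by symbol from the 33696 genes of each library. They are 5 ligands (Tnf, Lta, Ltb, Fasl and Tnfsf10) and 4 receptors (Tnfrsf1a, Tnfrsf1b, Fas and Tnfrsf10b). They were counted in CD45+ immune cells of mouse liver, obtained on a Ficoll gradient, sorted by flow cytometry and sequenced with 10x Genomics droplet chemistry that counts RNA molecules from the 3′ end by unique molecular identifiers (UMIs). One library came from untreated wild-type C57BL/6J mice. The other came from wild-type C57BL/6J mice injected into the vein with a low dose of ConA (concanavalin A), a lectin from the jack bean that is mitogenic for T lymphocytes, at 10 mg/kg, 1 time per week for 3 weeks, which the labels call an immune tolerance model. Ages beyond age matching, the number of mice in each library and the interval between the last injection and collection are not given in the sources used here.

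Ligands of the TNF family signal through receptors on neighbouring cells. TNF, made as a membrane protein and shed by a protease, binds TNFR1 (gene Tnfrsf1a), which carries a death domain and can either activate NF-kappaB and survival genes or assemble a caspase-8 or necroptosis complex, and TNFR2 (Tnfrsf1b), which has no death domain. Fas ligand (Fasl) on cytotoxic lymphocytes binds Fas, and TRAIL (Tnfsf10) binds the TRAIL receptor of the mouse (Tnfrsf10b); both receptors recruit FADD and caspase-8. Lymphotoxin alpha (Lta) alone uses the TNF receptors, and together with lymphotoxin beta (Ltb) it forms a membrane complex that binds the lymphotoxin beta receptor. Hepatitis after a single ConA injection is a classical model in which TNF and Fas ligand contribute to hepatocyte injury. Hepatocytes themselves were not sampled here.

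Lta, Tnf and Ltb are neighbours on chromosome 17, within the major histocompatibility region. Their promoters and that of Tnfsf10 are shown because the library ratios of Tnf and Tnfsf10 had opposite signs in the Ncr1 gate and in gates with Csf1r, defined below, and Lta and Ltb lie beside Tnf. Each sequence is the 250 bases before the start of transcription, 5′ to 3′ on the gene's strand, from RefSeq on GRCm38.p6, at chr17:35202008-35202257 (minus strand) for Tnf, chr17:35205352-35205601 (minus) for Lta, chr17:35194257-35194506 (plus) for Ltb and chr3:27316827-27317076 (plus) for Tnfsf10. Capitals mark the letters of any searched motif on either strand.
Tnf: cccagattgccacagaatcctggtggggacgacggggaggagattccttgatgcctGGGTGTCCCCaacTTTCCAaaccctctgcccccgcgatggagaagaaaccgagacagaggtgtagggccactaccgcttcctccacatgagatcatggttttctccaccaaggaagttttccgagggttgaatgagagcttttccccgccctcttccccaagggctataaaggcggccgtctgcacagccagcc
Lta: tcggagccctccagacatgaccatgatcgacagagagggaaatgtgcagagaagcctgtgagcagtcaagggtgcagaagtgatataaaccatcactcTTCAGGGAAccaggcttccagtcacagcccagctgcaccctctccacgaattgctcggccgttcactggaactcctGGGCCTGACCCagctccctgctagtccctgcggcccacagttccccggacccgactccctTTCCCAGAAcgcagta
Ltb: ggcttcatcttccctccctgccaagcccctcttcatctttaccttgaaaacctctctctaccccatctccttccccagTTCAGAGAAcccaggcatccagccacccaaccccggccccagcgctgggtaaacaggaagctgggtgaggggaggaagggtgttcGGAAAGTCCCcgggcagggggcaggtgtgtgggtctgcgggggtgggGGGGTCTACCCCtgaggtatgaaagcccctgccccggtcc
Tnfsf10: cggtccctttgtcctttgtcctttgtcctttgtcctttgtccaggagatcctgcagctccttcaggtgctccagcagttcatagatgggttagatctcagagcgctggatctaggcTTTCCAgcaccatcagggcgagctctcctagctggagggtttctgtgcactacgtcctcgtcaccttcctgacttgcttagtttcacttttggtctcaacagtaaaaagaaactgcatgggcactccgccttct

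The motifs searched were a kappaB-like GGGNNNNNCC, an interferon response element-like GAAANNGAAA, an AP-1-like TGANTCA, an NFAT-like TGGAAA and a GAS-like TTCNNNGAA. Among 32851 promoters of the same length they were present in 45.8%, 2.98%, 6.75%, 18.6% and 7.02%. Tnf held 1 kappaB-like match, at -194 to -185 from the start, and 1 NFAT-like match, at -181 to -176. Lta held 2 overlapping kappaB-like matches between -76 and -66 and 2 GAS-like matches. Ltb held a kappaB-like match at -87 to -78, 3 overlapping ones between -40 and -29, and 1 GAS-like match. Tnfsf10 held only an NFAT-like match, at -134 to -129. Of the other members with a promoter in the RefSeq table (8 of 9, as Tnfrsf10b was not matched), Fasl held 1 kappaB-like match. Tnfrsf1a held 1 kappaB-like and 1 GAS-like match, and Fas 2 kappaB-like, 1 AP-1-like and 1 GAS-like match. The Tnfrsf1b promoter held 3 kappaB-like matches, 1 GAS-like match and an interferon response element-like match at -10 to -1. These are matches of letters and were not tested as binding sites.

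Cells were grouped by gates on 6 lineage genes, as the definition of the gene set requires. A gate takes cells with at least 1 UMI of its marker and none of the other lineages: Cd79a (B cells), Cd3e (T cells), Ncr1 without Cd3e (NK cells and innate lymphoid cells), Cd3e with Ncr1, Csf3r (neutrophils), Csf1r (monocytes, macrophages and dendritic cells), Csf3r with Csf1r, and Siglech (plasmacytoid dendritic cells). The 8 gates took 11067 of 17632 kept untreated cells (62.8%) and 10787 of 17767 ConA cells (60.7%). Cells with markers of other pairs of lineages made up 26.6% and 21.5%, and cells with no marker 10.7% and 17.8%. The Cd3e gate held 1582 untreated and 4641 ConA cells, the Ncr1 gate 626 and 872, the Cd3e and Ncr1 gate 131 and 398, and the Cd79a gate 3231 and 3136. The Csf3r gate held 2419 and 470, the Csf1r gate 876 and 337, the Csf3r and Csf1r gate 1770 and 394, and the Siglech gate 432 and 539.

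Each group is a single library without replicates, so no test between groups was made and a difference is a statement on these 2 libraries, not on ConA treatment. In each pair of values the untreated library comes first. Levels are counts per 1000000 UMIs of the gate (CPM), with exact Poisson intervals; log2 ratios are ConA over untreated with exact conditional intervals; all intervals are at 95% and cover counting error only. The libraries held 71289226 and 73589264 UMIs in 18088 and 18762 barcodes, 82 of which occur in both. Kept cells had medians of 3128 and 3471 UMIs, and 93.8% and 92.1% of them had UMIs of Ptprc, the gene of CD45. The median of 16 interferon-stimulated genes was lower in the ConA library in every gate, with log2 ratios from -3.11 to -1.99. Summed UMIs of 5 red cell markers were higher in the ConA library in every gate, for example 5267 and 33254 CPM in the Cd3e gate. Kupffer cell markers were near 0 in both libraries (Clec4f in 24 and 4 cells), so resident macrophages of the liver are hardly represented.

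Against markers that had not been used for gating, each list of 5 was highest in its own gate in each library, except the phagocyte list. Phagocyte markers were at 112% and 177% of the Csf1r gate's summed level in the Csf3r and Csf1r gate, where neutrophil markers stood at 19.0% and 13.3% of the Csf3r gate. That gate had the deepest cells, with medians of 5538 and 5494 UMIs against 2434 and 2828 in the Csf3r gate and 4446 and 4536 in the Csf1r gate. Removing cells with high doublet scores left its Tnf ratio at -2.39, against -2.09 with them.

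Tnf, the gene of the ligand that gives the pathway its name, was lower in the ConA library in myeloid gates and higher in the Cd3e gate and in the Ncr1 gate. In the Csf3r and Csf1r gate it was 76.4 CPM (71.3 to 81.7) in the untreated library and 17.9 CPM (13.0 to 24.0) in the ConA library, from 853 and 44 UMIs, which is 4.27-fold lower (log2 ratio -2.09, -2.57 to -1.66). In the Csf1r gate it was 83.0 CPM (74.7 to 92.0) and 29.8 CPM (22.4 to 38.9), a log2 ratio of -1.48 (-1.92 to -1.06). In the Csf3r gate it was 33.7 and 14.2 CPM (-1.25, -1.95 to -0.62). The intervals of the 2 libraries do not overlap in any of these 3 gates. Siglech cells followed the same direction, at 39.7 and 17.0 CPM (-1.23, -1.79 to -0.68; -2.38 with clusters named by gate), and B cells had the lowest Tnf of all gates in both libraries, at 7.53 and 4.13 CPM (-0.87, -1.45 to -0.30). Summed phagocyte markers were lower with these values, at 12.6% and 5.26% of the Csf1r gate in Siglech cells and 6.23% and 3.15% in B cells, with none of the 5 at 0. Their part in the Tnf of these 2 gates was not tested.

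In T and Ncr1 cells the direction was the other one. Tnf was 24.0 CPM (20.3 to 28.2) and 30.5 CPM (28.0 to 33.2) in the Cd3e gate, from 148 and 548 UMIs, a log2 ratio of 0.35 (0.08 to 0.62). In the Ncr1 gate it was 13.0 CPM (8.82 to 18.4) and 24.2 CPM (19.0 to 30.3), a log2 ratio of 0.90 (0.27 to 1.55). The make-up and the T cell markers of this gate, given below, also differed between the libraries. Their part in its Tnf was not tested. The Cd3e and Ncr1 gate showed no difference detectable at this depth, at 27.2 and 26.1 CPM (-0.06, -0.91 to 0.86). The order of levels therefore differed between the libraries: the Csf1r gate and the Csf3r and Csf1r gate, whose intervals overlap, were highest in the untreated library, whereas in the ConA library the intervals of the Cd3e, Csf1r, Cd3e and Ncr1, and Ncr1 gates overlapped at the top.

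The share of cells with a Tnf UMI was separate between the libraries after thinning in 1 of the 3 myeloid gates. After thinning every cell to 1000 UMIs, which leaves out shallower cells (18 and 4 in the Csf3r and Csf1r gate), it was 6.56% (5.45 to 7.83) and 1.28% (0.418 to 2.97) in that gate, and 24.8% and 7.87% before thinning. In the Csf1r gate it was 7.34% (5.65 to 9.35) and 3.44% (1.73 to 6.07), with 59 and 17 cells left out, against 25.6% and 10.4% before thinning. It was 2.75% and 1.19% in the Csf3r gate and 2.53% and 2.90% in the Cd3e gate. The thinned intervals of the libraries overlapped in these last 3 gates. B cells, the lowest gate, were at 0.555% and 0.397%. Cells with many Tnf molecules were part of the myeloid difference: 32 untreated cells of the Csf3r and Csf1r gate had at least 5 UMIs of Tnf and held 210 of its 853 UMIs, whereas no ConA cell of this gate had more than 3. In the Cd3e gate of the ConA library 4 cells with at least 5 UMIs held 42 of 548 UMIs, and the highest cell had 27.

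Tnf was lower in the gated cells of both larger fractions taken by a marker in the Csf1r gate, by amounts that depended on the processing. A further fraction, with C1qb, held only 12 and 10 cells. The level of cells in none of these fractions is not given here. Cells with Ccr2, the chemokine receptor of inflammatory monocytes, had 81.1 and 41.4 CPM (-0.97, -1.57 to -0.42), and cells with Flt3, a receptor of dendritic cells, had 66.5 and 21.7 CPM (-1.61, -2.60 to -0.69). The make-up of the gate differed: Ccr2 cells were 564 of 876 (64.4%) and 127 of 337 (37.7%), and Flt3 cells 7.88% and 27.0%. When whole clusters named by their most frequent gate were counted in place of gated cells, the Tnf ratio of the Csf1r class was -0.61 and that of its Flt3 cells -0.23. For Ccr2 cells it was -1.998 without cells of high doublet score. Early response genes, which tissue dissociation is known to induce, had list medians below 0, though single genes went both ways. These medians were -0.56 in the Csf1r gate, -0.50 in the Csf3r and Csf1r gate, -0.51 in the Csf3r gate and -0.30 in the Cd3e gate. Of the listed genes with enough UMIs, 2 of 14 were higher in the ConA library in each gate with Csf1r. It was 3 of 13 in the Csf3r gate and 3 of 12 in the Cd3e gate. A list of 13 NF-kappaB target genes had medians of -0.45 in the Csf1r gate and -0.36 in the Csf3r and Csf1r gate. Its medians were -0.11 in the Csf3r gate, 0.02 in the Cd3e gate and -0.33 in the Ncr1 gate. The last of these gates had more Tnf in the ConA library and a lower list median. The part of dissociation in the Tnf values was not tested.

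Lta, the soluble lymphotoxin, was found mainly in B and T cells and was lower in T cells of the ConA library. In the Cd3e gate it was 12.1 CPM (9.55 to 15.2) and 5.96 CPM (4.88 to 7.20), from 75 and 107 UMIs, a log2 ratio of -1.03 (-1.47 to -0.58). Cells of this gate with Cd4 had 17.7 and 5.59 CPM (-1.66, -2.57 to -0.78), and cells with Cd8a 6.19 and 3.34 CPM (-0.89, -2.14 to 0.46), the latter from 9 and 17 UMIs. In the Cd79a gate it was 9.62 and 7.44 CPM, with overlapping intervals. In the Siglech gate only 9 and 2 UMIs were counted, and each of the other 5 gates had at most 11 UMIs in either library.

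Ltb, the membrane-anchoring partner of lymphotoxin alpha, was higher in the ConA library in 7 of 8 gates, and B cells were the exception. In the Cd79a gate it was 394.6 CPM (381 to 408) and 385.8 CPM (374 to 398), a log2 ratio of -0.03 (-0.10 to 0.03). In the Cd3e gate it was 301.7 CPM (288 to 316) and 438.1 CPM (428 to 448), a log2 ratio of 0.54 (0.46 to 0.61), so that T cells stood below B cells in the untreated library and above them in the ConA library. In the Ncr1 gate it was 98.8 CPM (86.6 to 112) and 232.6 CPM (216 to 250.2), from 236 and 722 UMIs, which is 2.35-fold higher (1.24, 1.02 to 1.45). Summed T cell markers in this gate were 584 and 827 CPM, 24.3% and 33.0% of the Cd3e gate with none at 0, and their part in its Ltb was not tested. The thinned share of cells with an Ltb UMI was 9.12% and 17.3% in the Ncr1 gate (22.2% and 43.9% before thinning), 23.8% and 34.4% in the Cd3e gate, and 32.0% and 35.7% in the Cd79a gate.

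Myeloid gates were below the Cd79a and Cd3e gates, and their Ltb was also higher in the ConA library; the Csf3r gate stood above the Ncr1 gate in the untreated library. The Csf3r gate had 149 and 198 CPM (0.41, 0.22 to 0.59), the Csf1r gate 27.4 and 68.5 CPM (1.32, 0.95 to 1.70), the Csf3r and Csf1r gate 38.1 and 73.6 CPM (0.95), and the Siglech gate 30.6 and 51.7 CPM (0.76, 0.31 to 1.22). Summed T cell markers moved with these values. They stood in the Csf1r gate at 2.79% of the Cd3e gate in the untreated library and 8.15% in the ConA library, in the Csf3r and Csf1r gate at 1.56% and 4.37%, in the Siglech gate at 3.81% and 8.05%, and in the Csf3r gate at 5.60% and 10.5%, with none of the 5 markers at 0. Their part in the Ltb of myeloid gates was not tested. Beside the Csf3r gate's Ltb, B cell markers in that gate were at 3.08% and 3.40% of the Cd79a gate.

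**Figure D1:**
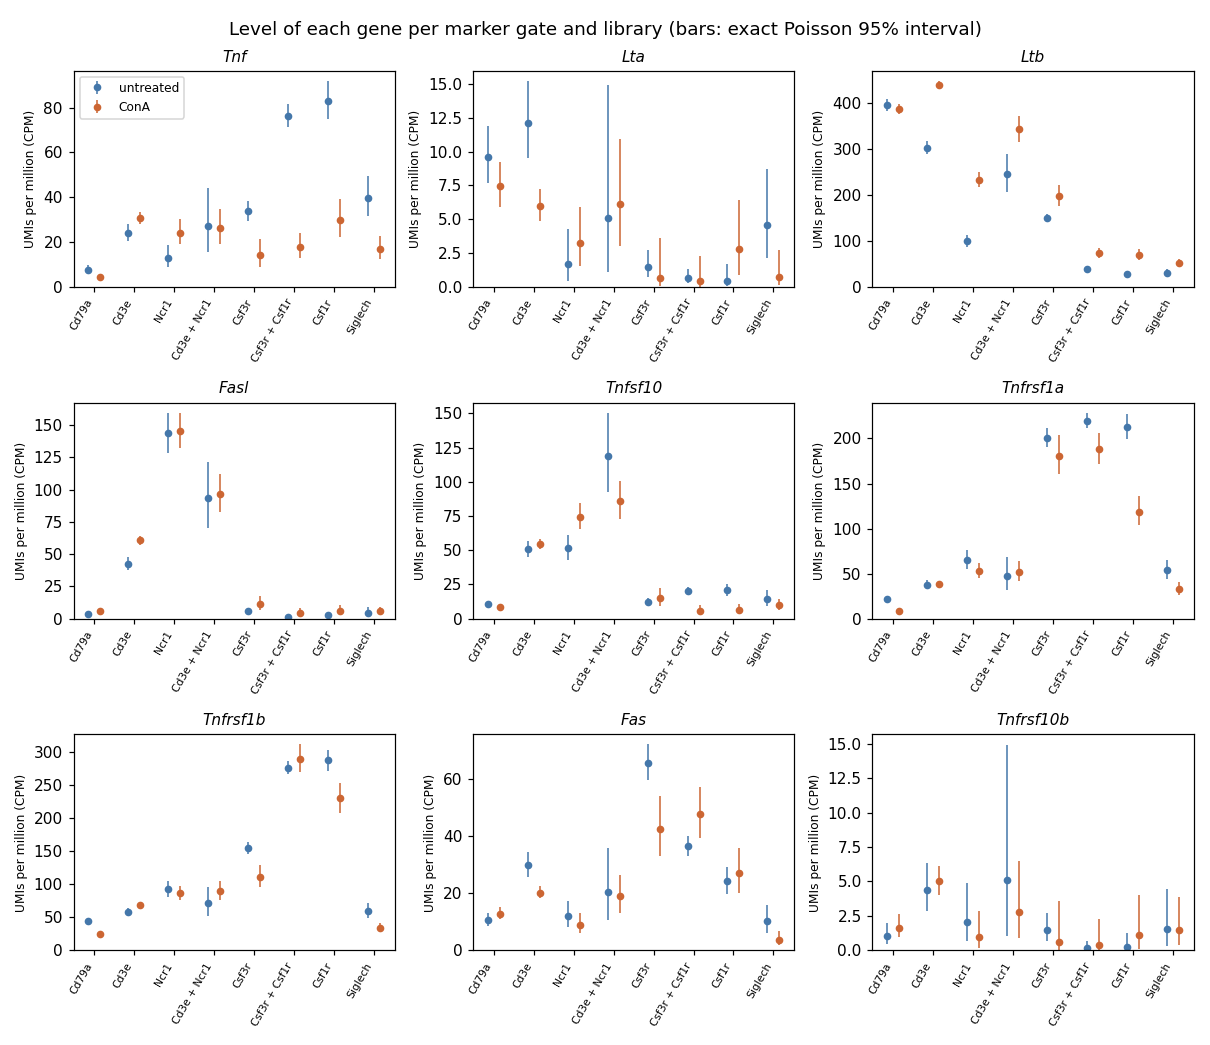
Level of each of the 9 genes in each of the 8 marker gates (horizontal axis), in CPM of the gate (vertical axis, starting at 0), for the untreated (blue) and ConA (orange) library; bars are exact Poisson 95% intervals for counting error. Tnf in the Csf3r and Csf1r gate is at 76.4 and 17.9 CPM, and Ltb in the Ncr1 gate at 98.8 and 232.6 CPM.

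Fasl, the ligand that cytotoxic lymphocytes use to engage Fas, was highest in the Ncr1 gate, at the same level in both libraries within counting error, and higher in T cells of the ConA library. In the Ncr1 gate it was 143.6 CPM (129 to 160) and 145.3 CPM (132 to 159), from 343 and 451 UMIs, a log2 ratio of 0.02 with an interval from -0.19 to 0.22. In the Cd3e and Ncr1 gate it was 93.6 and 96.6 CPM, with overlapping intervals. In the Cd3e gate it was 42.4 CPM (37.4 to 47.9) and 60.7 CPM (57.1 to 64.4), from 262 and 1090 UMIs, a log2 ratio of 0.52 (0.32 to 0.72). Thinned shares were 13.7% and 13.7% of Ncr1 cells and 4.03% and 5.87% of Cd3e cells. In B cells they were 0.392% and 0.496%, with median depths of 2561 and 3054 UMIs. Fasl in the Cd79a gate was 3.71 and 5.97 CPM (0.69, 0.05 to 1.34), from 32 and 65 UMIs.

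Within T cells the ratio was largest in cells with Cd8a among the 3 fractions compared here. They had 31.6 CPM (23.2 to 42.2) and 78.7 CPM (71.2 to 86.8) of Fasl, from 46 and 401 UMIs, a log2 ratio of 1.31 (0.87 to 1.79). Cells with Cd4 had 38.1 and 36.2 CPM (-0.07, -0.53 to 0.40), and cells with UMIs of neither Cd4, Cd8a nor Foxp3 had 51.1 and 61.9 CPM (0.28, 0.01 to 0.55), a smaller difference in the same direction. The intervals of the Cd8a and Cd4 ratios do not overlap; no test between cell types over samples was possible. Cells with Cd8a were 312 of 1582 (19.7%) and 1172 of 4641 (25.3%) of the gate. In the other 5 gates Fasl was between 1.43 and 10.96 CPM, where T cell markers were at up to 10.5% of the Cd3e gate and NK markers at up to 4.61% of the Ncr1 gate; their part in these values was not tested.

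Tnfsf10, the gene of TRAIL, was higher in the Ncr1 gate and lower in both gates with Csf1r of the ConA library. In the Ncr1 gate it was 51.5 CPM (42.8 to 61.5) and 74.4 CPM (65.1 to 84.7), from 123 and 231 UMIs, a log2 ratio of 0.53 (0.21 to 0.86). In the Csf1r gate it was 20.6 CPM (16.5 to 25.3) and 6.08 CPM (3.04 to 10.9), from 90 and 11 UMIs, a log2 ratio of -1.76 (-2.81 to -0.85), or -1.09 with clusters named by gate. In the Csf3r and Csf1r gate it was 20.4 and 5.69 CPM (-1.84, -2.74 to -1.07). The Csf3r gate did not share this, at 12.2 and 14.8 CPM (0.28, -0.45 to 0.97). TRAIL is known as an interferon-induced gene, and the interferon-stimulated list was lower in both gates with Csf1r, with medians of -2.88 and -3.11; in the Ncr1 gate, where Tnfsf10 was higher, that list was also lower, at -2.20. Its part in the Tnfsf10 values was not tested. The Cd3e gate showed little difference, at 50.9 and 54.5 CPM (0.10, -0.09 to 0.29). The Cd3e and Ncr1 gate had 119 and 86.0 CPM (-0.47, -0.89 to -0.04). Its ratio was -1.16 with clusters, where this class held only 9 and 40 cells. B cells were at 10.5 and 8.45 CPM.

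The Ncr1 gate combined fractions of very different Tnfsf10 level. Cells with Cxcr6, a receptor of liver-resident innate lymphocytes, had 184 CPM (135 to 246) and 162 CPM (132 to 196), whereas cells with Eomes, a transcription factor of conventional NK cells, had 17.2 CPM (10.2 to 27.2) and 9.74 CPM (4.45 to 18.5). Neither fraction was higher in the ConA library, with log2 ratios of -0.19 (-0.70 to 0.35) and -0.82 (-2.16 to 0.41). Cxcr6 cells were 58 of 626 (9.27%) and 172 of 872 (19.7%) of the gate, and Eomes cells 36.4% and 26.9%. The untreated levels of the fractions and of the remaining cells, weighted by the ConA make-up of the gate, give 69.5 CPM, beside the 74.4 CPM measured in the ConA library, and the ConA levels weighted by the untreated make-up give 56.6 CPM, beside the 51.5 CPM of the untreated library. For Ltb the same calculation gives 124.6 and 205 CPM, beside 232.6 and 98.8 CPM measured. Eomes cells alone had 59.2 and 143 CPM of Ltb (1.27, 0.82 to 1.73), and Cxcr6 cells 308 and 389 CPM (0.33, -0.04 to 0.72). Tnf was 32.0 and 47.6 CPM in Cxcr6 cells (0.57, -0.59 to 1.91) and 6.69 and 5.41 CPM in Eomes cells (-0.31, -2.30 to 1.57), from 5 to 30 UMIs each. For Tnf the same calculation gives 15.8 and 19.2 CPM, beside 24.2 and 13.0 CPM measured.

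Among T cells, those with Cd8a had more Tnfsf10 in the ConA library, at 39.2 and 68.1 CPM (0.80, 0.39 to 1.23), as for Fasl. Cells with Cd4 had 56.5 and 43.9 CPM (-0.36, -0.75 to 0.03). The 36 and 56 cells with Foxp3, the factor of regulatory T cells, had 14 and 5 UMIs of Tnfsf10, or 79.9 and 22.1 CPM (-1.86, and -3.94 without cells of high doublet score). In the Cd3e gate 32.6% of untreated cells with a Fasl UMI also had a Tnfsf10 UMI, against 13.8% of cells without Fasl; in the ConA library it was 26.3% against 14.7%. Cells with Fasl were deeper (medians of 4751 against 3597 and 4114 against 3637 UMIs), and the part of depth in this was not tested. In the Ncr1 gate the shares were 14.2% against 11.9% and 19.2% against 17.7%.

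**Figure D2:**
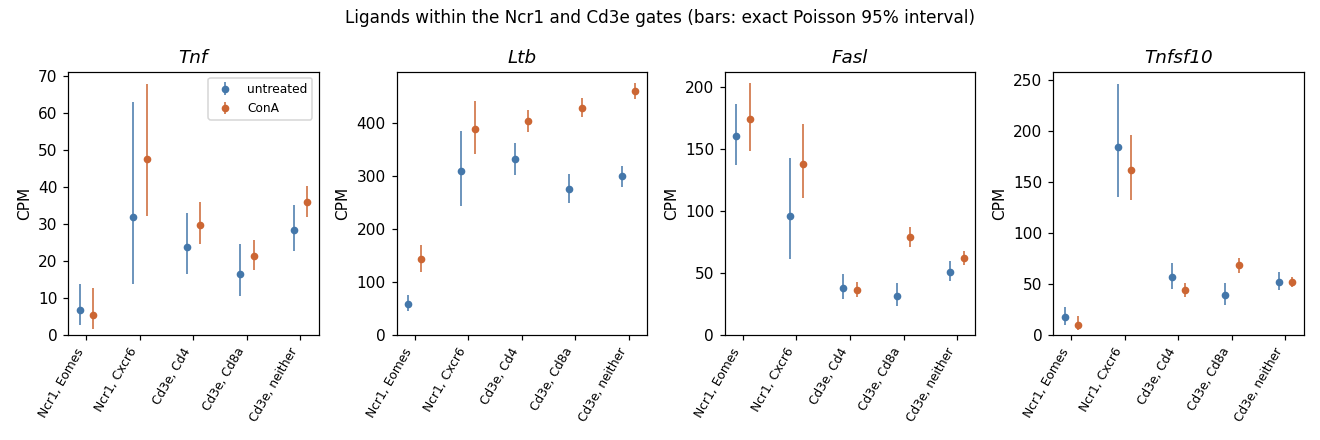
Levels of Tnf, Ltb, Fasl and Tnfsf10 in CPM (vertical axes) in fractions of the Ncr1 gate (with Eomes or Cxcr6) and of the Cd3e gate (with Cd4, with Cd8a, or with neither), untreated in blue and ConA in orange, with exact Poisson 95% intervals. Fasl and Tnfsf10 are higher in the ConA library in Cd8a cells (31.6 and 78.7 CPM, 39.2 and 68.1 CPM), and Tnfsf10 separates Cxcr6 from Eomes cells in both libraries.

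Tnfrsf1a, the death-domain receptor of TNF, was highest in the 3 gates with Csf3r or Csf1r. In the ConA library it was lower in both gates with Csf1r and in Siglech and B cells. It was 213 CPM (199.8 to 227) and 119 CPM (103 to 136) in the Csf1r gate, a log2 ratio of -0.84 (-1.06 to -0.63). In the Csf3r and Csf1r gate it was 220 and 189 CPM (-0.22, -0.37 to -0.08), a smaller difference than in the Csf1r gate. That ratio ranged from -0.38 to -0.01 under the alternatives. The Csf3r gate had 201 and 181 CPM (-0.15, -0.34 to 0.04), with an interval that includes 0. B cells had 21.8 CPM (18.8 to 25.1) and 8.54 CPM (6.89 to 10.5), a log2 ratio of -1.35 (-1.73 to -0.99), and Siglech cells 53.5 and 32.5 CPM (-0.72, -1.15 to -0.30). Phagocyte markers were lower in both gates, at the shares given for Tnf, and their part in these values was not tested. T cells had 37.6 and 38.3 CPM (0.03) and Ncr1 cells 65.3 and 52.5 CPM (-0.31), without a difference beyond counting error in the whole gate. Fractions differed: Cd8a cells had 23.4 and 35.5 CPM (0.60, 0.07 to 1.18) and Cd4 cells 41.5 and 33.6 CPM (-0.31, -0.76 to 0.16). Cxcr6 cells of the Ncr1 gate had 108 and 63.4 CPM (-0.77, -1.51 to -0.009), and Eomes cells 50.6 and 47.6 CPM (-0.09, -0.70 to 0.51).

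Tnfrsf1b, the TNF receptor without a death domain, was also highest in phagocytes. The Csf3r and Csf1r gate had 276 CPM (267 to 286) and 290 CPM (269 to 312), the Csf1r gate 288 CPM (272 to 304) and 230 CPM (208 to 253), and the Csf3r gate 155 and 112 CPM (-0.47). The Csf1r ratio of -0.32 depended on the setting: it was -0.07 without cells of high doublet score and -2.13 with clusters in place of gates. Cells of this gate with Ccr2 had 314 and 335 CPM, and cells with Flt3 119 and 63.8 CPM (-0.90, and -0.28 without cells of high doublet score). B cells were lower in the ConA library, at 44.5 and 24.5 CPM (-0.86, -1.09 to -0.63), together with their phagocyte markers (6.23% and 3.15% of the Csf1r gate), whose part was not tested. Siglech cells had 59.6 and 34.3 CPM (-0.80, -1.21 to -0.39), but -0.13 with the marker of the most UMIs. T cells were slightly higher, at 58.1 and 69.1 CPM (0.25, 0.08 to 0.42). Among them, Cd8a cells had 50.2 and 78.7 CPM (0.65, 0.29 to 1.03) and Cd4 cells 48.4 and 58.0 CPM (0.26, -0.13 to 0.67). Cells with UMIs of neither Cd4, Cd8a nor Foxp3 had 63.7 and 67.7 CPM (0.09, -0.15 to 0.33). Regulatory T cells are known for this receptor, and the Foxp3 cells had 120 and 119 CPM from 21 and 27 UMIs.

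Fas, the receptor of Fas ligand, was highest in the Csf3r gate of the untreated library. It was 65.6 CPM (59.7 to 72.1) and 42.5 CPM (32.9 to 54.1) there, a log2 ratio of -0.63 (-1.02 to -0.25), and 36.4 and 47.6 CPM (0.38, 0.07 to 0.68) in the Csf3r and Csf1r gate, so the direction differed between these gates. T cells had 29.8 CPM (25.6 to 34.4) and 20.2 CPM (18.2 to 22.4), a log2 ratio of -0.56 (-0.82 to -0.30). Cd4 cells had 35.4 and 19.97 CPM (-0.83, -1.36 to -0.29), cells with UMIs of neither Cd4, Cd8a nor Foxp3 30.2 and 19.9 CPM (-0.60, -0.98 to -0.22), and Cd8a cells 22.0 and 21.6 CPM (-0.03, -0.61 to 0.59). B cells had 10.5 and 12.9 CPM and Ncr1 cells 12.1 and 9.02 CPM, with overlapping intervals. Tnfrsf10b, the TRAIL receptor, was barely detected, with 107 and 192 UMIs in whole libraries and at most 5.11 CPM in any gate; the Cd3e gate held 27 and 90 of them (4.37 and 5.01 CPM).

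**Figure D3:**
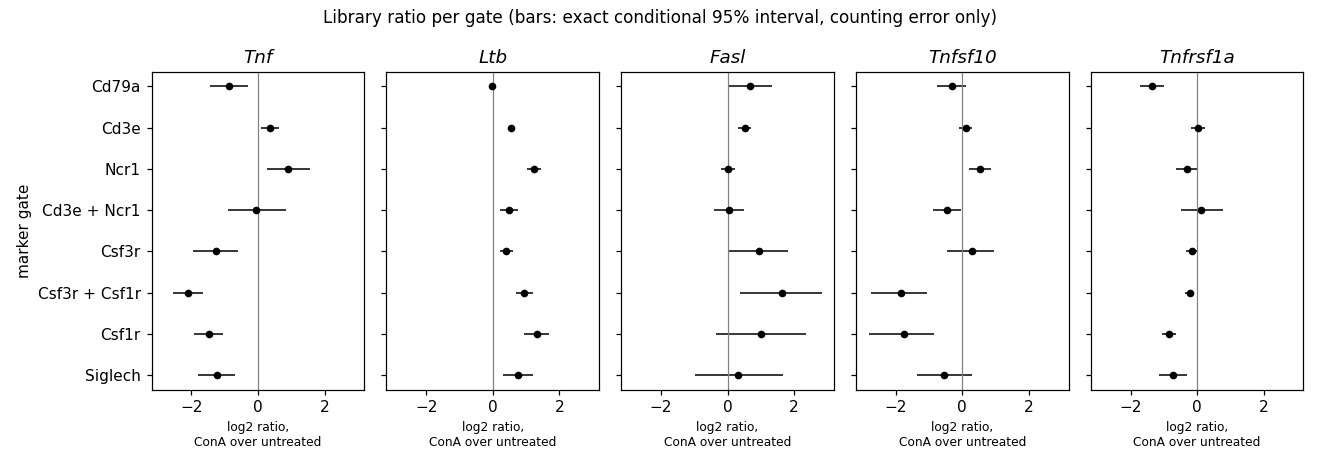
Log2 ratio of ConA over untreated (horizontal axes, 0 marked by a line) in each marker gate for Tnf, Ltb, Fasl, Tnfsf10 and Tnfrsf1a, with exact conditional 95% intervals for counting error. Tnf and Tnfsf10 lie left of 0 in the Csf1r gate (-1.48 and -1.76) and right of 0 in the Ncr1 gate (0.90 and 0.53), and Ltb lies at -0.03 in the Cd79a gate.

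Across whole libraries these gate levels combined with different numbers of cells. Tnf was 40.4 CPM (38.9 to 41.9) and 19.1 CPM (18.1 to 20.1), a log2 ratio of -1.08 (-1.17 to -0.99), and Fasl 21.03 and 41.2 CPM (0.97, 0.88 to 1.06). The Csf3r and Csf1r gate held 853 of the 2843 Tnf UMIs of the untreated library and 44 of the 1371 of the ConA library (3.21%). The Csf1r gate held 12.8% and 3.94%, and the Csf3r gate 7.98% and 1.60%. The Cd3e gate held 5.21% (4.42 to 6.09) and 39.97% (37.4 to 42.6), and it held 8.77% and 25.02% of all UMIs. Most Tnf UMIs assigned to a gate thus came from gates with Csf3r or Csf1r in the untreated library and from lymphocyte gates in the ConA library, while 37.4% and 35.8% lay outside the gates. For Fasl the Ncr1 gate gave 23.2% and 15.2% and the Cd3e gate 17.7% and 36.8%, and for Tnfsf10 the Cd3e gate gave 16.4% and 41.7%.

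A recalculation exchanged the make-up by gate between the libraries. Changes of make-up inside a gate count as level in it. The same holds inside the class outside the gates, which held 40.3% and 41.2% of all UMIs. With the ConA make-up and the untreated level of each gate, cells outside the gates included as a class, Tnf would be 30.7 CPM, and with the untreated make-up and the ConA levels 17.4 CPM, against the measured 40.4 and 19.1 CPM. For Fasl the same values were 30.5 and 29.4 CPM and for Ltb 232 and 244 CPM, each between the values of the libraries. For Tnfrsf1a, 120 and 48.3 CPM in the libraries, they were 79.9 and 81.0 CPM. Tnfrsf1b was 144 and 76.0 CPM in whole libraries (-0.93, -0.97 to -0.88), Fas 28.8 and 19.1 CPM (-0.59), Ltb 181 and 311 CPM (0.78) and Tnfsf10 27.1 and 32.7 CPM (0.27).

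**Figure D4:**
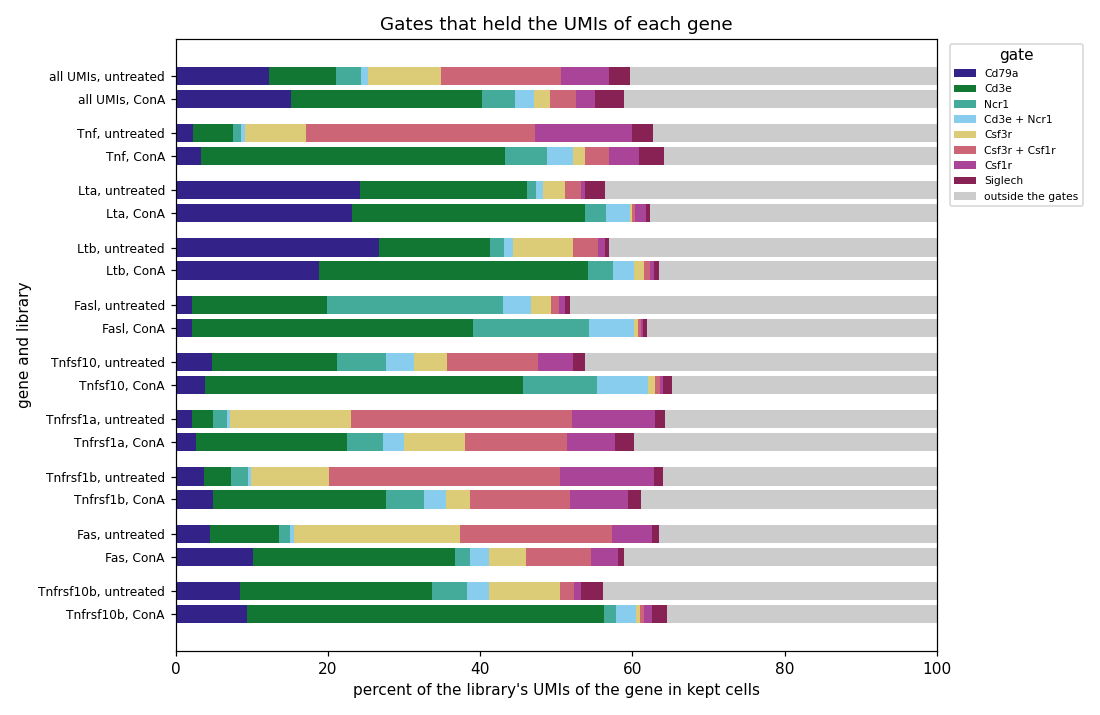
Percent of each gene's UMIs in kept cells (horizontal axis) that fell in each marker gate (colours) or outside the gates (grey), for each library, with all UMIs in the upper pair of bars. The Cd3e gate holds 5.21% of Tnf UMIs in the untreated and 39.97% in the ConA library.

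A 2-fold difference was counted after adding 5 CPM to each level, for genes that had 50 or more UMIs in total and reached 10 CPM in 1 library. Some members passed it. In the Csf1r gate 3 of the 6 members that passed the minimum did so (Ltb higher, Tnf and Tnfsf10 lower), where 9.53% of 8669 genes did, 5.44% higher and 4.08% lower. In the Csf3r and Csf1r gate it was 2 of 6 (Tnf and Tnfsf10, lower; 6.55% of 8502 genes, 2.98% higher and 3.58% lower), in the Csf3r gate 1 of 7 (Tnf, lower; 8.27%, 3.21% higher and 5.06% lower), in the Siglech gate 1 of 5 (Tnf, lower; 3.69%, 1.21% higher and 2.48% lower) and in the Ncr1 gate 1 of 7 (Ltb, higher; 3.09%, 1.07% higher and 2.02% lower). No member did in the Cd3e gate (0 of 8; 2.59% of genes, 1.02% higher and 1.57% lower), the Cd79a gate (0 of 5; 4.34%, 1.47% higher and 2.87% lower) or the Cd3e and Ncr1 gate (0 of 6; 3.98%, 1.86% higher and 2.12% lower). Members that passed the minimum include some that passed through the library where they were higher, so these shares are not set against the background as a result. A median log2 ratio without the added 5 CPM was also taken, over genes with 50 or more UMIs in total and some in each library. This median was 0.14 in the Csf3r gate and 0.15 in both gates with Csf1r, and setting it to 0 would lower each ratio there by as much.

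Downstream genes were counted at the same 2-fold threshold, with the share of all genes past it in either direction in brackets. Of 60 further genes in 5 lists (related ligands and receptors, adaptors, caspases and BH3 proteins, inhibitors, necroptosis and gasdermin genes), 50 passed the minimum in the Cd3e gate. Of these, 0 were higher and 1 lower by 2-fold (2.59%), and the median was -0.02 against 0.04 for all genes. In the Ncr1 gate it was 0 higher and 1 lower of 52 (3.09%), and in the Cd79a gate 1 and 1 of 48 (4.34%). The Csf3r gate had 0 and 2 of 52 (8.27%), and the Csf3r and Csf1r gate 2 and 4 of 51 (6.55%). In the Csf1r gate it was 2 and 4 of 51 (9.53%), with a median of -0.22 against 0.14. It was 0 and 2 of 47 in the Siglech gate (3.69%) and 1 and 1 of 37 in the Cd3e and Ncr1 gate (3.98%). No gene of the adaptor list or the caspase and BH3 list passed 2-fold in any gate. Beside these shares, this is not read as a result on these genes.

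Zbp1, a sensor of nucleic acids that can start necroptosis and is itself induced by interferon, was lower in all 8 gates. It was 332 and 21.9 CPM in the Csf3r gate (-3.92), 401 and 60.2 CPM in the Csf1r gate (-2.73), 153 and 21.9 CPM in the Cd79a gate (-2.81), 192 and 52.1 CPM in the Cd3e gate (-1.88) and 154 and 52.5 CPM in the Ncr1 gate (-1.55). Mlkl, the pore-forming executor of necroptosis, was 34.1 and 12.2 CPM in the Csf1r gate (-1.49), and Casp4, an inflammatory caspase, was 145 and 48.6 CPM there (-1.58) and 328 and 103 CPM in the Csf3r gate (-1.67). These genes were lower in the same gates as the interferon-stimulated list, whose part in their values was not tested.

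Inhibitors of death went in both directions. Bcl2a1b and Bcl2a1d, near-identical members of the A1 family whose reads may be shared, were higher in the Csf1r gate, at 54.0 and 133 CPM (1.30) and 41.4 and 104 CPM (1.33). In the same gate Tnfaip3, the gene of the NF-kappaB inhibitor A20, was lower, at 155 and 70.2 CPM (-1.14, -1.42 to -0.86). Bcl2l1, the gene of Bcl-xL, was 9.16 and 28.3 CPM in the Cd79a gate (1.63) and 37.1 and 56.1 CPM in the Cd3e gate (0.60), where Bcl2 was 945 and 628 CPM (-0.59). Mcl1, a survival factor of neutrophils, was 1284 and 668 CPM in the Csf3r gate (-0.94, -1.04 to -0.85). Xiap, a caspase inhibitor, was 95.9 and 148 CPM in the Ncr1 gate (0.63) and Fcmr, the IgM Fc receptor, 476 and 299 CPM in the Cd79a gate (-0.67).

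Adaptors and caspases showed smaller ratios. Casp8, the initiator caspase of the death receptors, was 104 and 74.1 CPM in the Cd79a gate (-0.50), 80.3 and 52.2 CPM in the Csf3r gate (-0.62) and 132 and 85.7 CPM in the Csf1r gate (-0.63). Fadd, the adaptor that joins it to Fas, was 9.72 and 5.18 CPM in the Cd3e gate (-0.91, -1.39 to -0.42). Birc3, the gene of the ubiquitin ligase cIAP2, was lower in the Cd79a (-0.59), Cd3e (-0.57) and Csf3r (-0.64) gates, and Tab2, an adaptor of the TAK1 kinase, higher in the Cd3e (0.45) and Ncr1 (0.48) gates. Cyld, which removes ubiquitin chains from the receptor complex, was 68.1 and 117 CPM in the Csf1r gate (0.78). Pmaip1 and Apaf1, genes of the mitochondrial death pathway, were higher in the Cd3e gate (0.98 and 0.66), and Cycs, cytochrome c, was lower (-0.66). Ltbr, the receptor of the lymphotoxin complex, was 70.2 and 33.2 CPM in the Csf1r gate (-1.08, -1.51 to -0.68), and Rhbdf2, needed for TNF shedding, was 74.3 and 38.1 CPM (-0.96).

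**Figure D5:**
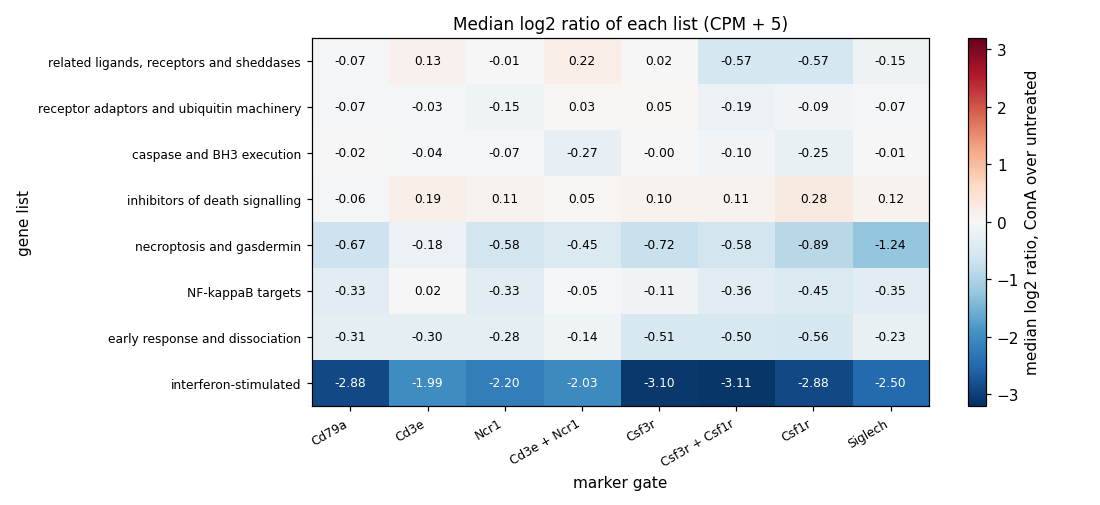
Median log2 ratio (ConA over untreated, CPM plus 5) of each gene list (rows) in each marker gate (columns), printed in each cell and coloured from blue (lower) to red (higher). The interferon-stimulated list is between -3.11 and -1.99 in all gates, and the adaptor list stays between -0.19 and 0.05.

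Genes of like pattern were sought over the 16 combinations of gate and library among 6030 genes, as a description over points that share libraries and depth. For Fasl they were Klrc1, Nkg7, Ctsw, Samd3 and Il2rb, with Pearson correlations of 0.99, of which Nkg7 belongs to the NK marker list. For Ltb they were Lmbr1l, Zfp831 (both 0.97), Zhx2, Prkd2 and Arhgef3, and for Tnfsf10 Gm12216, Abcb9, Abcb1a, Stk39 and AW112010 (all 0.93). Tnf had the weakest likeness, with 0.83 for Arf5, followed by Chmp2a, Tspo, Stard3 and Axl (0.80).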

How the data were processed

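The 2 10x Genomics libraries were analysed as deposited. The authors deposited a raw UMI count matrix per library with its gene and barcode lists; the file headers name Cell Ranger 8.0.1, and the processing notes of the submitters list version 6.0.1 of it, with Seurat 4.3.0 and the mm39 build. No barcode had fewer than 500 UMIs. Cells with at least 500 UMIs, 300 genes and at most 10% mitochondrial UMIs were kept. Cells with markers of other lineage pairs were left out, which was the treatment of doublets; no doublet caller was applied in the main values. UMIs were summed per library and gate. Shares of cells were computed after thinning to 1000 UMIs (seed 1). No fold was given with both libraries at or under 3 UMIs. With 1 library per group no test was made. The ratio intervals were tried on simulated Poisson counts, the model that they assume. Clumping of UMIs in single cells was not simulated, so this checks the calculation and not the cover of the intervals in these data. The members, gates and gene lists were chosen with earlier results of these data known. Named were all 9 members, the 3 genes per list with the largest absolute ratio in the Cd3e, Ncr1, Cd79a, Csf3r and Csf1r gates (a selection of these is printed), and the 5 genes most like each of Tnf, Fasl, Tnfsf10 and Ltb. Promoters came from RefSeq GRCm38.p6, another build than that of the counts, and were matched by symbol. Alternatives varied the gate, the filters, doublet removal, clusters, scaling, thinning and the constant. Software was Python 3.11.15, numpy 2.4.6, scipy 1.17.1, pandas 2.3.3, scikit-learn 1.9.0, leidenalg 0.10.2 and matplotlib 3.10.9.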

Additional observations from a re-analysis of the deposited data

Results flagged for a closer look

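In 4 genes the gates stood on opposite sides of 0 with intervals that left out 0. The share of all genes with this pattern was not computed. Each difference was not tested, because each gate has 1 library per group. For Tnf the log2 ratio in the Ncr1 gate (0.90) exceeded that in the Csf3r and Csf1r gate (-2.09) by 2.99. For Tnfsf10 the ratios in the same gates (0.53 and -1.84) differed by 2.37. For Tnfrsf1b the ratio in the Cd3e gate (0.25) exceeded that in the Cd79a gate (-0.86) by 1.11. For Fas the ratio in the Csf3r and Csf1r gate (0.38) exceeded that in the Siglech gate (-1.43, from 20 and 10 UMIs) by 1.82. The Siglech ratio of Fas was -0.19 with the marker of the most UMIs and -0.15 with clusters named by gate.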

How the results depend on the processing

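Of 70 ratios of members in gates, 37 had an interval that left out 0, and 36 of these kept their sign under each of the alternatives that gave a value, 8 at most. The exception was Fasl in the Csf3r gate, at 0.96, which was -0.74 with at least 2 UMIs of the marker. The share of all genes whose interval left out 0 was not computed, so the 37 of 70 is not read as a result on the members. In finer gates 2 ratios reversed: Tnfrsf1a in Cd8a cells was 0.60 and became -0.033 with the marker of the most UMIs, and Ltb in Ccr2 cells was 1.13 and became -0.16 with clusters named by gate. In the Csf1r gate Tnfrsf1a was -0.52 with the marker of the most UMIs and -1.16 with clusters, against -0.84, and Tnf was -0.61 with clusters, against -1.48. Ltb in the Ncr1 gate was 0.94 with clusters, against 1.24. With a constant of 1 CPM in place of 5, 2 pathway genes passed 2-fold in the Cd3e gate and 2 in the Ncr1 gate, against 1 in each. Splits by Ccl5, Trdc, Zbtb16 and Camp were added after the data had been seen. The cause of these changes was not tested. Low UMI counts limit Lta and Tnfrsf10b in most gates. No paired analysis was possible because each group has 1 library and no test was made.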

Other observations

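Splits chosen after the values had been seen gave further levels. Among Cd3e cells with Cd8a, those with Ccl5, a chemokine of effector T cells, were 181 of 312 (58.0%) in the untreated and 1013 of 1172 (86.4%) in the ConA library. Their Fasl was 48.6 and 90.0 CPM (log2 ratio 0.89, 0.44 to 1.37), while Cd8a cells without Ccl5 had 2 and 5 UMIs of Fasl. Among cells with UMIs of neither Cd4, Cd8a nor Foxp3, those with Trdc, the constant gene of the delta chain of the gamma-delta T cell receptor, numbered 80 and 385. They had 346 and 649 CPM of Ltb (0.91, 0.62 to 1.21) and 46.1 and 75.0 CPM of Tnf (0.70, -0.11 to 1.62). The fraction taken by Zbtb16, 192 and 665 cells, had ratios of 0.61 for Ltb (0.42 to 0.81) and 0.09 for Tnf (-0.49 to 0.71). The remaining 587 and 1321 cells had 0.41 for Ltb (0.27 to 0.56) and -0.15 for Tnf (-0.71 to 0.44). Tnfrsf1b was lower in the Trdc cells (-0.71, -1.26 to -0.14), against 0.001 with Zbtb16 and 0.31 in the remaining cells.

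In the Csf3r gate, cells with Camp, a granule gene of immature neutrophils, were 2.60% of the untreated and 30.4% of the ConA cells. Cells without Camp had 33.7 and 16.8 CPM of Tnf (-1.01, -1.87 to -0.25) and 149 and 237 CPM of Ltb (0.67, 0.45 to 0.88). Cells with Camp had 153 and 145 CPM of Ltb (-0.08, -0.67 to 0.55).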
